A study of Mus musculus with 96 samples.

Results

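The cation chloride cotransporters examined here were the 5 genes Slc12a1, Slc12a2, Slc12a3, Slc12a4 and Slc12a7, taken by symbol from a table of 54532 mouse genes, in which each symbol occurs on 1 row. Their levels were read in microdissected glomeruli (GL) and in all segments of the renal tubule from untreated male C57BL/6 mice aged 6 to 8 weeks on normal chow, with no genetic alteration stated in the labels. The proximal tubule gave an initial convoluted part (PTS1), a straight part of the cortical medullary rays (PTS2) and, in the outer stripe of the outer medulla, a last straight part (PTS3). Thin limbs comprised the short loops' descending limb (DTL1), that of the long loops in outer medulla (DTL2) and inner medulla (DTL3), and the ascending thin limb (ATL). Distal groups were the thick ascending limb in medulla (MTAL) and cortex (CTAL), the distal convoluted tubule (abbreviated DCT), connecting tubules (CNT) and the collecting duct, sampled in cortex (CCD), in outer medulla (OMCD) and in the inner medulla (IMCD). The 93 samples came from 53 mice, 5 each in PTS2, CTAL and CCD, 4 each in ATL and OMCD and 3 in each of the other groups. Up to 3 dissected pieces of one mouse were averaged, and the mouse was the replicate. The study describes 53 mice in all, which is the sum over groups, and the labels do not say that a number used in 2 groups marks the same animal.

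These transporters move chloride across the plasma membrane together with sodium, potassium or both, and the gradient set up by the sodium pump drives them. Slc12a1 encodes NKCC2, the apical sodium-potassium-chloride cotransporter of the thick ascending limb and the target of loop diuretics, and Slc12a3 encodes NCC, the apical sodium-chloride cotransporter of the distal convoluted tubule and the target of thiazides. Slc12a2 encodes NKCC1, which usually sits in the basolateral membrane and loads cells with chloride, whereas Slc12a4 (KCC1) and Slc12a7 (KCC4) carry potassium and chloride out of cells. WNK kinases and the kinases SPAK and OSR1 activate the sodium-coupled members by phosphorylation and inhibit the potassium-chloride members.

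Levels are given as TPM, transcript abundance scaled to transcript length and to a constant total per sample, so that genes can be set side by side. Differences between groups are on the scale log2(TPM + 1), which understates changes at low levels, and came from limma, with Benjamini-Hochberg adjustment over 33793 genes. A difference was called at an adjusted p under 0.05 and a log2 difference of at least 1. The number of reads behind a value cannot be read from TPM and is unknown. The smallest value above 0 was 0.01 TPM in tubule columns and 0.1 in glomerulus columns. In such bulk samples fewer cells of a type and less RNA per cell cannot be told apart.

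Marker sums were compared with the labels for some of the groups. The summed level of 5 thick limb genes (Umod, Egf, Cldn16, Ptger3, Casr) reached 20564 TPM or more in MTAL and CTAL mice, against 5864 or less in every other mouse, and the sum of Pvalb, Trpm6 and Emx1 was 478 to 655 TPM in DCT against at most 18.6 elsewhere. Cldn4 and Psca summed to 9852 TPM or more in ATL mice and to at most 285 in others, and the 6 principal cell genes named further on to 11362 TPM or more in CNT and the collecting duct and to at most 1883 in others. Markers of the thin descending limbs were not examined. Of 4 proximal genes (Lrp2, Slc34a1, Slc5a2, Slc22a6), the sum in PTS3 was 75.8 to 87.9 TPM, with Slc5a2 listed at 0. In PTS1 and PTS2 that sum was 5416 TPM or more. Genes particular to the last straight part were not examined, so this sum is no check of the PTS3 label. Odorant and vomeronasal receptor genes, which the kidney scarcely uses, served as a measure of low-level signal. Of 1438 such genes, 623 to 739 reached 1 TPM in DTL1 mice, 313 to 719 in GL, 402 to 446 in DTL3 and 220 to 302 in DTL2. The OMCD mice had 57 to 193, those of PTS1 and IMCD at most 18, and the mice of CCD, CNT, DCT, both thick limbs, PTS2 and PTS3 at most 5. Within ATL the mice stood apart, with mouse 3 having 15 such genes, mouse 2 23, mouse 4 512 and mouse 6 582.

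All 5 members passed the filter on low values (at least 1 TPM in at least 3 mice), and all 5 differed among the 15 groups, with adjusted p between 2.57e-30 for Slc12a3 and 7.19e-17 for Slc12a7 (limma F-test). That test was also passed by 93.9% of all genes tested. The members fell into a pair of segment-restricted transcripts, Slc12a1 and Slc12a3, and 3 broadly detected transcripts, whose highest value in any mouse was 97.5 (Slc12a7) to 167 TPM (Slc12a2). Slc12a1 exceeded 10 TPM in all 8 thick limb mice and in 3 of the other 45, and Slc12a3 in all 3 DCT mice and in 1 of the other 50. By contrast, the lowest value of Slc12a7 in any mouse was 5.59 TPM, and Slc12a2 was at least 1.15 TPM in all 53 mice. Slc12a4 was under 1 TPM in 2 mice, both of PTS3, at 0.04 and 0.855 TPM. Summed over the 5 members, the level was 4202 ± 776 TPM (SD, n = 3) in MTAL, 6249 ± 845 (n = 5) in CTAL and 5893 ± 229 (n = 3) in DCT, whereas the other groups ranged from 13.6 TPM in PTS3 to 214 in GL.

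**Figure D1:**
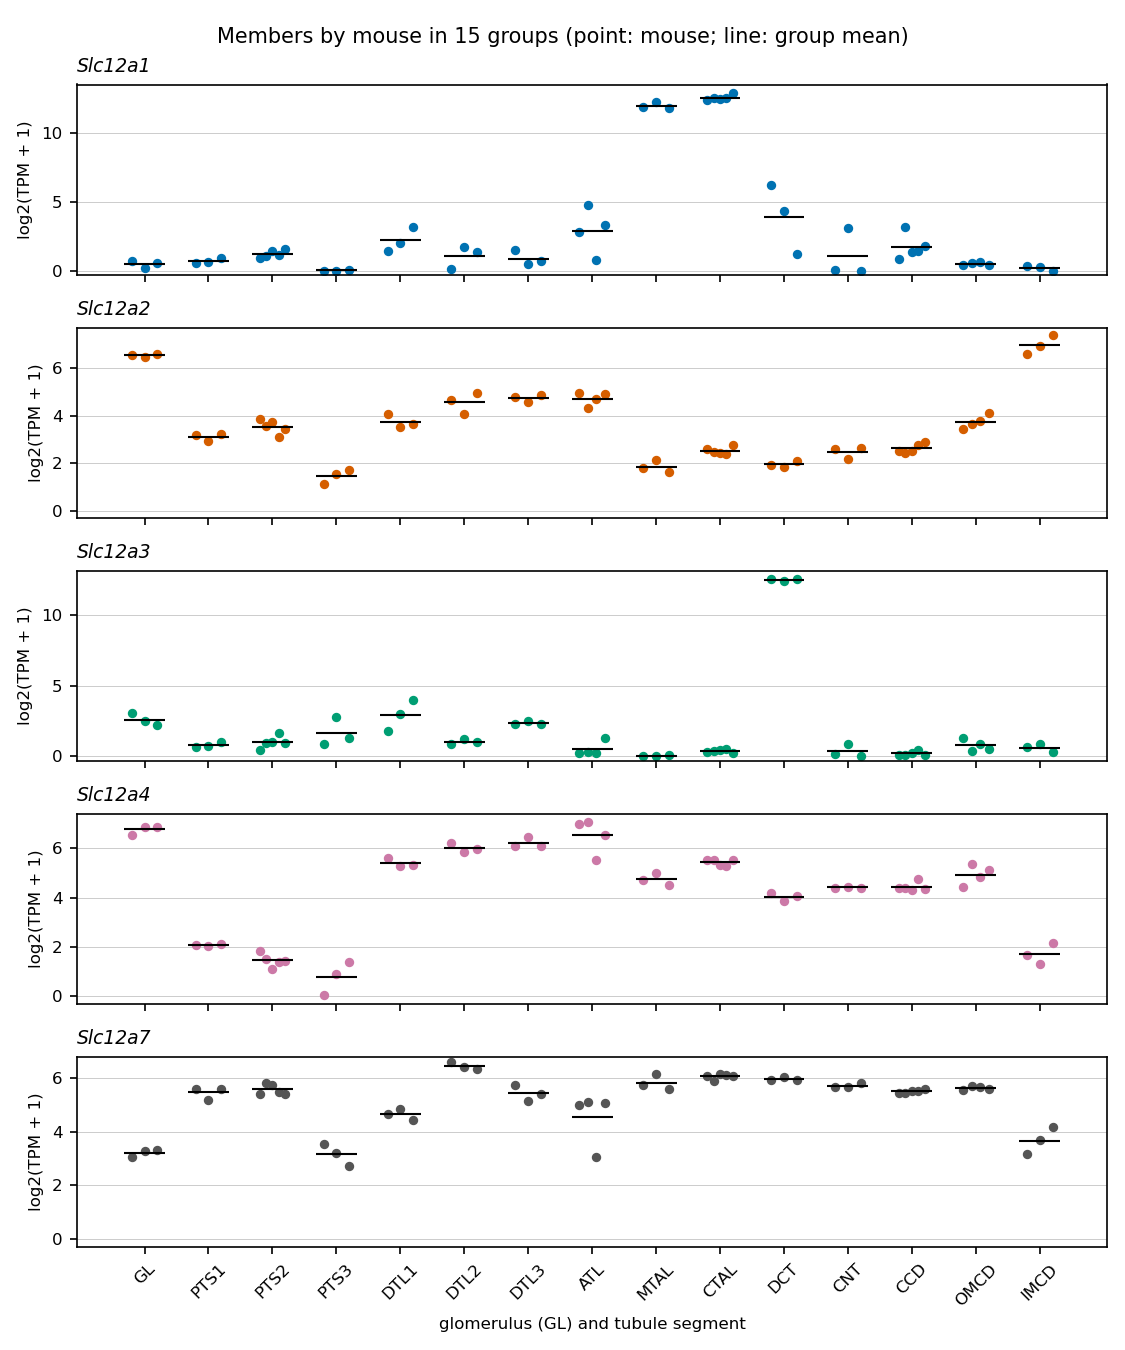
Level of each member as log2(TPM + 1) (vertical axis, linear) in glomeruli and tubule segments (horizontal axis). Points are mice (pieces averaged as TPM) and lines are group means: Slc12a1 is high in MTAL and CTAL, Slc12a3 in DCT, and the remaining members are spread over many groups.

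The promoters of 4 members were found in RefSeq (GRCm38.p6), and none was found for Slc12a2. The 250 bases before the annotated start are printed 5′ to 3′ on the gene's strand for both segment-restricted members and for the broadly detected Slc12a4 and Slc12a7, because the expression patterns differ between these pairs. The first listed start was used for Slc12a7. Capitals mark the TATAAA motif on the printed strand and the GC box GGGCGG on either strand (GGGCGG or CCGCCC).
Slc12a1, chr2:125152350-125152599, plus strand: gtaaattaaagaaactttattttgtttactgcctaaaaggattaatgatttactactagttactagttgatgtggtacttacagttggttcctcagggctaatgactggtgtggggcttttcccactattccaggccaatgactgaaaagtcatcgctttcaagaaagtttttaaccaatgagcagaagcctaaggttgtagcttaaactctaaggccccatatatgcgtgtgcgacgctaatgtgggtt
Slc12a3, chr8:94328958-94329207, plus strand: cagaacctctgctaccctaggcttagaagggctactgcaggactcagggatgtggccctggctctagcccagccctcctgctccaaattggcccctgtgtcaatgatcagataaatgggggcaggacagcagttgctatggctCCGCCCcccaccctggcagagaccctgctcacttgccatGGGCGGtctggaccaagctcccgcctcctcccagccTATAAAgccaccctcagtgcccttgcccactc
Slc12a4, chr8:105966116-105966365, minus strand: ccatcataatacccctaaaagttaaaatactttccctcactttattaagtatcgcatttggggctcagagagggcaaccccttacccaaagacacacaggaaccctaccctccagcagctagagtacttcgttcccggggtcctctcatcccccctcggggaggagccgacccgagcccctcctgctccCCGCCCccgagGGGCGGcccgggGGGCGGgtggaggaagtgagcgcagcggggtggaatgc
Slc12a7, chr13:73763410-73763659, plus strand: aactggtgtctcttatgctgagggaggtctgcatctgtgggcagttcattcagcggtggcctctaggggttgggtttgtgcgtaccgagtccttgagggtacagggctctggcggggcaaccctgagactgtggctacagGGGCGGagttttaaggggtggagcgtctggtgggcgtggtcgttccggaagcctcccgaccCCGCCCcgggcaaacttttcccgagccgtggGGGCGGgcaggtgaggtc

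The Slc12a1 window held 39.6% G or C and neither motif. In Slc12a3 a TATAAA began at position -32 from the start, beside 2 GC boxes, in a window of 61.2% G or C with a ratio of observed to expected CpG of 0.134. The windows of Slc12a4 and Slc12a7 each held 3 GC boxes and no TATAAA, with CpG ratios of 0.569 and 0.631. Among 27025 promoters of that length, 32.9% held at least 1 GC box and 8.12% held TATAAA, the median G or C content was 52% and the median CpG ratio 0.378. These matches describe letters in the windows and were not tested as binding sites.

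Slc12a1, the apical transporter of the thick ascending limb, was the most abundant member in both thick limb groups. Its level was 3852, 4972 and 3525 TPM in the MTAL mice and 5295, 5971, 5796, 6067 and 7548 TPM in the CTAL mice. Every CTAL mouse lay above every MTAL mouse, and the ratio of the group means was 1.49. The limma difference of 0.58 on the log2 scale (SE 0.62, adjusted p = 1) was not called. Its standard error pools the spread of all groups, and for Slc12a1 the SD between mice ran from a median of 0.27 over groups up to 2.58 in DCT. Either thick limb group was called higher than all 13 groups outside the thick limb, by at least 8.62, a direction called in an average contrast for 5.24% of genes in MTAL and 6.32% in CTAL.

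Outside the thick limb Slc12a1 was low and uneven between mice. In the DCT it measured 72.3 TPM in mouse 1, 19.1 in mouse 2 and 1.29 in mouse 3. In the ATL it measured 5.99 TPM in mouse 2, 25.6 in mouse 3, 0.69 in mouse 4 and 8.76 in mouse 6. The pieces of one animal also differed: the 2 pieces of DCT mouse 2 gave 0.23 and 37.9 TPM, those of DCT mouse 1 gave 63 and 81.6, and those of CNT mouse 2 gave 0 and 14.8. The thick limb marker sum was 5864 TPM in DCT mouse 1, 3325 in mouse 2 and 4830 in mouse 3. The order of these sums was not that of Slc12a1, which was lowest in mouse 3. For scale, CTAL mice had sums of 50777 to 58398 TPM with Slc12a1 at 5295 TPM or more. The part of thick limb cells in the Slc12a1 values outside the thick limb was not tested. In the ATL 4 of the 5 thick limb genes averaged at least 1 TPM, led by Cldn16, a claudin of the tight junction, at 570 ± 193 TPM (SD, n = 4), with Umod at 9.36 ± 5.71. In PTS3 Slc12a1 was listed at 0 in 2 of 3 mice and at 0.025 TPM in the third.

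Ordered by mean log2 level, Slc12a1 ran CTAL, MTAL, DCT, ATL, DTL1, CCD, PTS2, DTL3, DTL2, PTS1, CNT, OMCD, GL, IMCD and PTS3. The step from MTAL to DCT, of 8.62 (SE 0.70, adjusted p = 1.18e-13), had an adjusted p under 0.05, and the other 13 steps in that order did not. An average pair of groups gave such a p for 43.6% of genes, but neighbours in an order by level are the closest pairs by construction, so that share is no background for these steps. The DCT value was called higher than that of CNT by 2.68 (SE 0.70, adjusted p = 0.00593), where 1.52% of genes were called in that direction. Without DCT mouse 1 the difference was 1.27 (adjusted p = 0.29), without CNT mouse 1 it was 2.37 (adjusted p = 0.0505) and without CNT mouse 3 it was 2.34 (adjusted p = 0.0522), and none of these 3 was called. The ATL was called above DTL3 by 2.04 (SE 0.65, adjusted p = 0.0143), against 2.86% of genes, but with only ATL mice 4 and 6 the difference was 1.16 (adjusted p = 0.206) and was not called. Leaving out 1 mouse at a time, DTL3 minus ATL ran from -2.75 to -1.42 and was not called in 3 of 53 fits.

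Slc12a3, the thiazide-sensitive transporter, was the most tightly restricted member. In the DCT it measured 5892, 5528 and 5925 TPM, a spread of 220 TPM (SD, n = 3) around 5782. It was the only member called higher in 1 group than in all 14 others, by 9.58 over the next group, DTL1 (SE 0.36, adjusted p = 1.49e-24), a property shared by 71 genes, or 0.21% of those tested, for the DCT. For the top groups of the other members, whose margins were not called, the same test held for 0.0651% of genes (CTAL), 0.527% (IMCD), 3.22% (GL) and 0.0829% (DTL2). On either side of the DCT it almost vanished. The CTAL mice held 0.16 to 0.415 TPM and the CNT mice 0.135, 0.84 and 0.04, and the differences from the DCT were 12.1 in both directions (adjusted p = 1.1e-30 against CTAL and 3.39e-28 against CNT), where 2.01% and 1.52% of genes were called higher in DCT. Its level in the MTAL was 0.01 to 0.065 TPM.

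The remaining groups held Slc12a3 at low levels, highest in DTL1 (2.48, 6.96 and 14.7 TPM), GL (7.25, 4.6 and 3.6) and DTL3 (3.95, 4.58 and 3.98). These 3 groups also had the highest medians of receptor genes at 1 TPM or more (733, 519 and 405), and the part of such low-level signal was not tested. At these low levels DTL1 was called above DTL2 by 1.92 (SE 0.36, adjusted p = 3.63e-05), and DTL3 above DTL2 by 1.37 (SE 0.36, adjusted p = 0.00442) and above ATL by 1.84 (SE 0.34, adjusted p = 2.95e-05), directions called for 25.2%, 6.08% and 11.8% of genes. None of the 3 reached the size required with a pseudocount of 5. In PTS3, with 2 to 5 receptor genes, Slc12a3 measured 0.88, 5.81 and 1.51 TPM. In order of mean log2 level, the member ran DCT, DTL1, GL, DTL3, PTS3, PTS2, DTL2, PTS1, OMCD, ATL, IMCD, CTAL, CNT, CCD and MTAL. Of the steps in this order 2 of 14 had an adjusted p under 0.05, from DCT to DTL1 and, at 0.79 (SE 0.36, adjusted p = 0.0462), from DTL3 to PTS3. Leaving out 1 mouse at a time, the number of such steps ran from 1 to 3.

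Slc12a2, the transporter that loads cells with chloride, peaked at opposite ends of the nephron. In the IMCD it measured 95.4, 119.5 and 167 TPM, and in the glomerulus 94, 87.7 and 94.9 TPM. The lowest IMCD mouse lay just above the highest glomerular one, and the 2 groups did not pass the test against each other (0.40, SE 0.22, adjusted p = 0.0985). Each was called higher than the 13 remaining groups, by at least 2.20 for the IMCD and 1.80 for the glomerulus. In an average contrast 8.79% of genes were called higher in IMCD and 35% higher in GL. The glomerulus holds several cell types, and its podocyte markers (Nphs1, Podxl, Wt1) summed to 2367 to 3385 TPM, endothelial markers (Pecam1, Kdr, Cdh5, Emcn, Ehd3) to 4418 to 4708 and mesangial and juxtaglomerular markers (Ren1, Pdgfrb, Itga8, Gata3) to 1642 to 2586. Their parts in the glomerular level were not tested.

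Along the collecting duct Slc12a2 rose with depth. The CCD mice held 4.44 to 6.5 TPM, the OMCD mice 9.81, 11.6, 12.8 and 16.2, and no values of these groups or of the IMCD overlapped. The step from CCD to OMCD was 1.10 (SE 0.18, adjusted p = 9.39e-06) and that from OMCD to IMCD 3.21 (SE 0.20, adjusted p = 2.06e-17), against 10.4% and 3.4% of genes called higher in the deeper group. Without OMCD mouse 4 the first step was 0.98 (adjusted p = 0.000199), just under the size required. At the same border the type B intercalated cell markers (Slc26a4, Insrr, Hmx2) went from 2013 to 3156 TPM in the CCD to 40.2 to 50.7 in the OMCD, and the receptor genes at 1 TPM or more from 1 in every CCD mouse to 57 to 193. Their part in the step was not tested. The group mean rose 10.1-fold from OMCD to IMCD. Markers of type A intercalated cells (Slc4a1, Aqp6, Kit, Dmrt2), which secrete acid, summed to 998.5 to 1140.0 TPM in the CCD, 2194 to 3058 in the OMCD and 1.52 to 2.37 in the IMCD, where 1 of the 4 averaged at least 1 TPM. Principal cell markers (Aqp2, Aqp3, Scnn1b, Scnn1g, Avpr2, Fxyd4) summed to 28216 to 34912 TPM in the IMCD and 41385 to 58945 in the OMCD. Of these, 4 of 6 averaged at least 1 TPM in the IMCD, where the water channel gene Aqp2 made up most of the sum at 27393 TPM, while the sodium channel subunits Scnn1b and Scnn1g were at 0.239 and 0.358 TPM against 691 and 620 in the OMCD. The part of these cell types in the step was not tested.

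In the loop of Henle Slc12a2 separated thin from thick limbs. All 13 thin limb mice lay between 10.5 and 30.2 TPM, and all 8 thick limb mice between 2.09 and 5.71. The fall from ATL to MTAL was 2.87 (SE 0.20, adjusted p = 5.55e-16), which 22.6% of genes shared, and it was the reverse of the rise in Slc12a1 of 9.09 (SE 0.65, adjusted p = 8.1e-16) at the same border, where 5.43% of genes were called higher in MTAL. In MTAL and CTAL the log2 level of Slc12a2 was 10.1 lower than that of Slc12a1 in both groups (SD 0.017, n = 3, and 0.16, n = 5). Proximal levels were 6.65 to 13.3 TPM in PTS1 and PTS2 and 1.15 to 2.23 in PTS3, and the drop between PTS2 and PTS3 was 2.11 (SE 0.19, adjusted p = 1.97e-11), with 3.94% of genes called in that direction. The order of Slc12a2 was IMCD, GL, DTL3, ATL, DTL2, DTL1, OMCD, PTS2, PTS1, CCD, CTAL, CNT, DCT, MTAL and PTS3. Only the steps from GL to DTL3 (1.80, SE 0.22, adjusted p = 3.36e-09) and from DTL2 to DTL1 (0.80, SE 0.22, adjusted p = 0.00276) had an adjusted p under 0.05.

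Slc12a4, the potassium-chloride cotransporter usually described as a housekeeping regulator of cell volume, was low in 4 groups. Its level was 92, 116.5 and 115.8 TPM in the glomerulus, and 125.7, 132, 44.9 and 91.3 TPM in ATL mice 2, 3, 4 and 6. The thin descending limbs held 37.9 to 87.4 TPM and the thick limb mice 21.8 to 45.5. The 11 mice of DCT, CNT and CCD held at most 26.1 TPM, with a median of 19.8. All 8 mice of PTS1 and PTS2 were between 1.18 and 3.33 TPM, the PTS3 mice at 0.04, 0.855 and 1.61 and the IMCD mice at 2.21, 1.48 and 3.49. Each of these 4 groups was called lower than all 11 groups outside them, and the directions were called in an average contrast for 16% of genes in IMCD, 21.8% in PTS1, 24.8% in PTS2 and 27.4% in PTS3.

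The borders of these low groups were the largest steps of Slc12a4. It rose from PTS3 to DTL1 by 4.73 (SE 0.26, adjusted p = 3.28e-20) and to DTL2 by 5.35 (SE 0.26, adjusted p = 4.89e-22), where 61.8% and 36.2% of genes were called higher in the thin limb and the median gene itself was 1.33 and 0.71 higher. Endothelial markers, all 5 of them above 1 TPM on average in the thin limbs, moved the same way at these borders. They summed to 22.8 to 51.2 TPM in PTS3, 804 to 885 in DTL1, 321 to 497 in DTL2 and 45.5 to 98.5 in the ATL. The mean of Slc12a4 was 63.8 TPM in DTL2 and 98.5 in the ATL. The part of endothelial cells in the rise was not tested. Slc12a4 fell by 3.33 from OMCD to IMCD (SE 0.24, adjusted p = 1.14e-15), opposite in direction to Slc12a2 at that border, against 15.2% of genes called higher in OMCD. The falls from ATL to MTAL by 1.79 (SE 0.24, adjusted p = 3.7e-08) and from CTAL to DCT by 1.39 (SE 0.23, adjusted p = 1.03e-05) were smaller. Between CTAL and DCT 2.34% of genes were called in that direction. Type B intercalated cell markers summed to 0.575 to 2.13 TPM in CTAL and 308 to 367 in DCT. Principal cell markers summed to 50.8 to 93.5 TPM in CTAL and 845 to 975 in DCT. The part of these cell types in the fall was not tested.

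By mean log2 level Slc12a4 was ordered GL, ATL, DTL3, DTL2, CTAL, DTL1, OMCD, MTAL, CCD, CNT, DCT, PTS1, IMCD, PTS2 and PTS3. The glomerulus exceeded the ATL by only 0.24 (SE 0.24, adjusted p = 0.434), and the order turned, with ATL first, under rescaling by the median ratio (-0.022), without ATL mouse 4 (-0.097) and with only ATL mice 2 and 3 (-0.26). GL and ATL were each called higher than 11 of the 14 other groups (35% and 16.2% of genes in an average contrast), the exceptions being each other, DTL2 and DTL3. The steps with an adjusted p under 0.05 were from DTL2 to CTAL (0.56, SE 0.23, adjusted p = 0.0373), from DCT to PTS1 (1.98, SE 0.26, adjusted p = 1.69e-08) and from PTS2 to PTS3 (0.81, SE 0.23, adjusted p = 0.0105).

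Slc12a7, the basolateral potassium-chloride cotransporter KCC4, was present at a group mean of 42.9 TPM or more in 10 of the 15 groups. It was highest in DTL2, at 97.5, 86.1 and 79.8 TPM, with no overlap with any other group, and was called higher there than in 6 of the 14 other groups (17.6% of genes in an average contrast). Next came a run of 6 groups from MTAL to OMCD, in which all 23 mice lay between 42.7 and 70.8 TPM, and PTS1 and PTS2 at 35.8 to 56.4 TPM. The low groups were PTS3 at 10.8, 8.35 and 5.59 TPM, GL at 7.3, 8.8 and 8.9 and IMCD at 7.89, 11.8 and 17. PTS3 and GL were each called lower than 12 of the other 14 groups, a direction called in an average contrast for 27.4% and 5.75% of genes.

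The order of Slc12a7 was DTL2, CTAL, DCT, MTAL, CNT, OMCD, PTS2, CCD, PTS1, DTL3, DTL1, ATL, IMCD, GL and PTS3. Between DTL2 and CTAL the difference was 0.38 (SE 0.25, adjusted p = 0.211), and no step down to DTL3 had an adjusted p under 0.05. The steps that did were from DTL3 to DTL1 (0.80, SE 0.28, adjusted p = 0.0244) and from ATL to IMCD (0.96, SE 0.27, adjusted p = 0.00411), both under the size required. Within the proximal tubule it dropped by 2.46 from PTS2 to PTS3 (SE 0.25, adjusted p = 4.05e-10), 5.76-fold by the group means and with no overlap, against 3.94% of genes.

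In the thin descending limbs Slc12a7 was higher in the long-loop DTL2 than in the short-loop DTL1 by 1.82 (SE 0.28, adjusted p = 1.89e-06), a direction in which 2.99% of genes were called while 25.2% were called the other way. DTL2 also exceeded DTL3 by 1.02 (SE 0.28, adjusted p = 0.00726), against 3.5% of genes, but without DTL2 mouse 1 this was 0.94 (adjusted p = 0.0377) and without DTL3 mouse 2 it was 0.88 (adjusted p = 0.0507), neither of them called. In the ATL mouse 4 held 7.27 TPM and mice 2, 3 and 6 held 31.3, 34.1 and 32.5. The rise from ATL to MTAL of 1.27 (SE 0.27, adjusted p = 0.000138) was 0.76 (adjusted p = 0.00366) with only ATL mice 2 and 3, and then not called. Slc12a7 fell from OMCD to IMCD by 2.04 (SE 0.27, adjusted p = 2.65e-08), with no overlap between the groups, where 15.2% of genes fell. At that border, where Slc12a4 fell as well, 5 genes shared by intercalated cell types (Atp6v1g3, Atp6v0d2, Atp6v1b1, Foxi1, Rhcg) summed to 3762 to 4998 TPM in the OMCD and 1.91 to 6.31 in the IMCD, and the type A markers moved with them. Their part in both falls was not tested.

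Slc12a4 and Slc12a7 carry out the same kind of transport, and within a mouse their balance changed between groups. The log2 level of Slc12a4 minus that of Slc12a7 was 3.57 ± 0.087 (SD, n = 3) in the glomerulus, 1.96 ± 0.41 (n = 4) in the ATL, 0.79 ± 0.49 (n = 3) in DTL3 and 0.75 ± 0.26 (n = 3) in DTL1, with Slc12a4 higher in every mouse of these groups. In the other 11 groups Slc12a7 was higher in every mouse. The difference there ran from -0.46 ± 0.14 (n = 3) in DTL2 and -0.65 ± 0.20 (n = 5) in CTAL to -3.40 ± 0.20 (n = 3) in PTS1 and -4.13 ± 0.39 (n = 5) in PTS2. No test was made of these ratios, which compare 2 genes measured in the same samples.

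**Figure D2:**
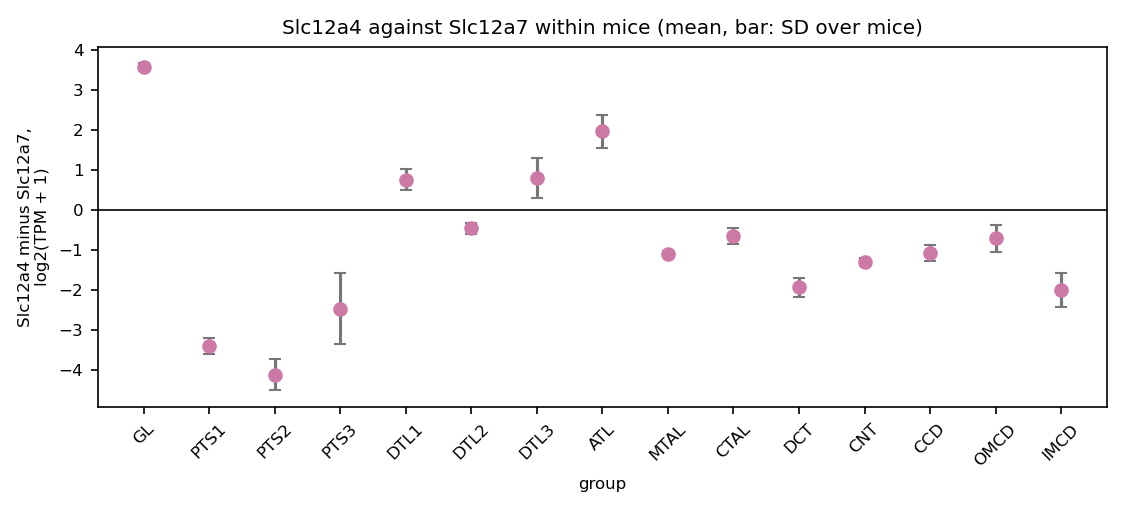
Difference between Slc12a4 and Slc12a7 within mice, log2(TPM + 1) (vertical axis), by group (horizontal axis). Points are means over mice and bars 1 SD: values above the line at 0 (GL, DTL1, DTL3, ATL) mean more Slc12a4 and values below it more Slc12a7.

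As shares of the summed TPM of the 5 members, Slc12a1 made up 98 ± 0.033% in MTAL (SD, n = 3) and 98.1 ± 0.24% in CTAL (n = 5), and Slc12a3 made up 98.1 ± 0.59% in DCT (n = 3). In the IMCD Slc12a2 held 89.3 ± 0.36% (n = 3). Slc12a7 led in the proximal groups, with 78 ± 1.4% in PTS1 (n = 3), 75.8 ± 3.4% in PTS2 (n = 5) and 61.4 ± 19.5% in PTS3 (n = 3), and in CNT with 65.2 ± 4.2% (n = 3). Slc12a4 led in the ATL with 60.4 ± 4.2% (n = 4), and in the glomerulus Slc12a4 and Slc12a2 held 50.3 ± 4.1% and 43.1 ± 3.3% (n = 3).

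**Figure D3:**
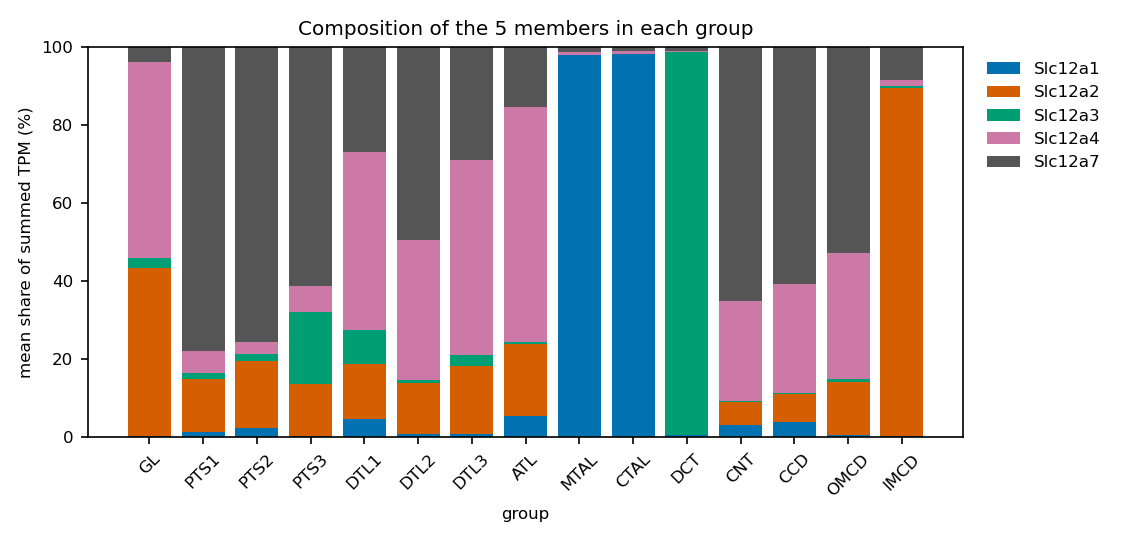
Mean share of each member in the summed TPM of the 5 members (vertical axis, %) in each group (horizontal axis). A single member fills MTAL, CTAL (Slc12a1), DCT (Slc12a3) and most of IMCD (Slc12a2), while the other groups are mixtures led by Slc12a4 or Slc12a7.

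Over the 14 pairs of neighbouring groups, the members gave 29 calls in 70 member contrasts, and an average pair called 17.5% of all genes. PTS1 against PTS2, MTAL against CTAL and CNT against CCD called none of the 5 members (0 of 5 each), where 9.57%, 3.15% and 1.12% of genes were called. An unadjusted p under 0.05 in limma was found for 2, 2 and 0 members in these pairs. In CTAL these were Slc12a2, 0.66 higher than in MTAL (adjusted p = 0.0284, under the size required), and Slc12a4, 0.69 higher (adjusted p = 0.0582). At the border of PTS3 with DTL1 all 5 members were called higher in DTL1, as were 61.8% of all genes (65.5% in either direction). For Slc12a3, leaving out 1 mouse at a time, PTS3 minus DTL1 ran from -1.895 to -0.806 and was not called in 2 of 53 fits. That border depended on scaling: under quantile normalization Slc12a3 was 1.04 higher in PTS3 (adjusted p = 0.0072) and Slc12a7 0.20 higher in PTS3 (adjusted p = 0.70), whereas the rise of Slc12a4 was called under every scaling tried. From CTAL to DCT (4.35% of genes) 3 members were called, Slc12a1 and Slc12a4 falling and Slc12a3 rising, and from ATL to MTAL (28.1%) 4. The count was 3 from PTS3 to DTL2 (40%) and from OMCD to IMCD (18.6%), 2 each from PTS2 to PTS3 (4.7%), DTL1 to DTL2 (28.2%), DTL2 to DTL3 (9.58%), DTL3 to ATL (14.6%) and DCT to CNT (5.22%), and 1 from CCD to OMCD (12.1%). Over every possible pair of groups Slc12a2 was called in 74, Slc12a4 in 73, Slc12a3 in 51, Slc12a7 in 49 and Slc12a1 in 48 pairs, where an average pair called 27.9% of genes.

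**Figure D4:**
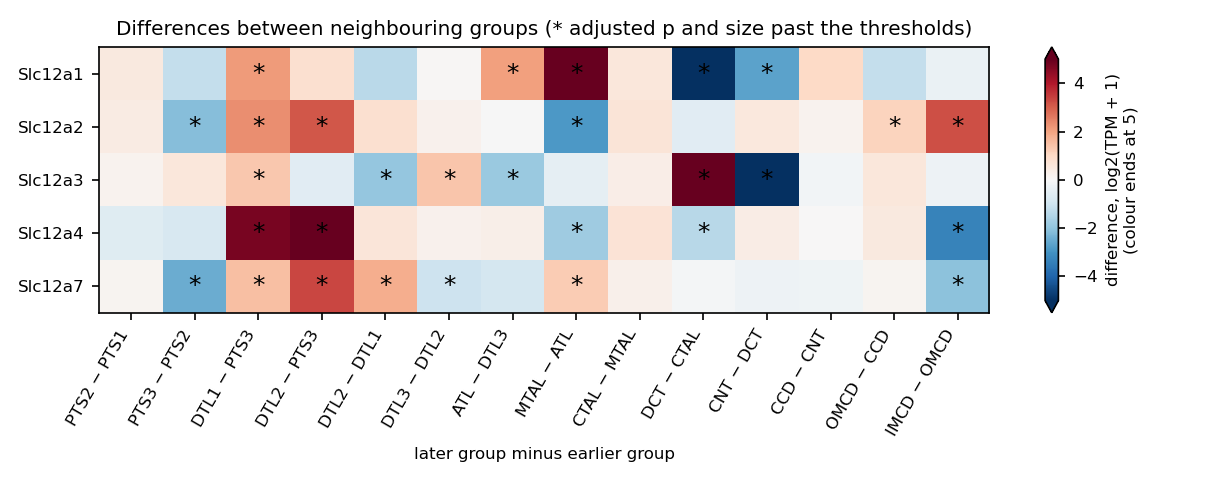
Differences of the members between neighbouring groups (columns, later minus earlier group; rows, members) as colour, on the scale log2(TPM + 1) with colours ending at 5. Stars mark the 29 called differences; the opposite signs of Slc12a2 against Slc12a4 and Slc12a7 at the border of OMCD and IMCD are seen in the last column.

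3 further genes of the Slc12 family, Slc12a5, Slc12a8 and Slc12a9, passed the filter and differed among groups. Slc12a8, a distant relative, was found at 16.7 ± 7.4 TPM in DTL1 and 12.8 ± 3.9 in IMCD, and rose by 3.11 from OMCD to IMCD (SE 0.29, adjusted p = 2.3e-12), the direction of Slc12a2. Slc12a5 (KCC2), known from neurons, was at 13.9 ± 1.3 TPM in GL and 9.68 ± 7 in DTL1, both groups of many receptor genes. Slc12a9 measured between 5.18 TPM in PTS3 and 33.5 in DTL1.

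The channels and channel or pump subunits that work beside the sodium-coupled members followed them across some borders and not others. From ATL to MTAL, where Slc12a1 rose, 4 of 6 transport partners rose and 1 fell, with a median difference, ATL minus MTAL, of -2.28 against 0.48 for all genes. Of all genes 5.43% were called higher in MTAL and 22.6% higher in ATL. Kcnj1, the apical potassium channel ROMK that recycles potassium for NKCC2, rose by 9.16 (SE 0.26, adjusted p = 1.63e-29), from 1.24 ± 1.1 TPM (n = 4) to 1181 ± 195 (n = 3). The potassium channel subunits Kcnj10 and Kcnj16, which sit in the basolateral membrane, rose by 3.32 (SE 0.22, adjusted p = 4.25e-17) and 6.95 (SE 0.20, adjusted p = 2.3e-29). Bsnd (barttin), an accessory subunit of basolateral chloride channels, fell by 2.75. From CTAL to DCT, where Slc12a1 gave way to Slc12a3, 1 partner rose (Fxyd2, by 1.52) and 0 fell, where 2.01% of all genes rose and 2.34% fell. Kcnj1 stood at 1258 ± 156 TPM in CTAL (n = 5) and 1846 ± 29.3 in DCT (n = 3).

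From OMCD to IMCD, where Slc12a2 rose, 4 of 6 partners fell and Fxyd2, a modulator of the sodium pump, rose by 8.71 (SE 0.18, adjusted p = 3.93e-35). At this border 15.2% of all genes fell and 3.4% rose. Kcnj1 fell by 10.2, Bsnd by 5.83, Kcnj10 by 1.78 and Kcnj16 by 1.07. In the IMCD Kcnj1 and Bsnd measured 0.151 and 0.814 TPM on average. The pump subunit Atp1b1 was at 942 ± 115 TPM (n = 3) there. Markers shared by intercalated cell types summed to 3762 to 4998 TPM in the OMCD and 1.91 to 6.31 in the IMCD. The part of these cells in the partners' changes was not tested.

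Of the 14 regulators 13 passed the filter, Wnk3 being the exception. At the border of CTAL and DCT 2 of 13 were called, and both rose, where 4.35% of all genes were called in either direction and 2.01% rose. Wnk1, which in kidney also has a short kinase-defective form not separated by this gene-level table, rose by 2.96 (SE 0.22, adjusted p = 7.02e-15) to 1012 ± 126 TPM in DCT (n = 3), and had already risen by 3.52 (SE 0.22, adjusted p = 1.72e-16) from MTAL to CTAL. Klhl3, the adaptor that marks WNK kinases for degradation, rose by 3.16 (SE 0.25, adjusted p = 6.79e-14), to 26.5 ± 3 TPM, and did not exceed 2.46 TPM on average in any other group. Both fell again from DCT to CNT, by 3.58 and 2.99, together with Wnk4, a kinase of the same family, by 1.38. Nedd4l, a ubiquitin ligase, and Sgk1, an aldosterone-induced kinase, rose at that border, by 1.96 and 3.15. Principal cell markers summed to 50.8 to 93.5 TPM in CTAL, 845 to 975 in DCT and 11362 to 15823 in CNT. Markers shared by intercalated cell types summed to 137.5 to 230.8 TPM in CTAL, 1506 to 1614 in DCT and 6262 to 7039 in CNT. The part of these cell types in the regulators' changes at both borders was not tested.

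The kinase genes Stk39 (SPAK) and Oxsr1 (OSR1), which phosphorylate these transporters directly, did not pass the test between CTAL and DCT. Stk39 measured 97.3 ± 22.1 TPM in MTAL (n = 3), 98.4 ± 9.1 in CTAL (n = 5) and 79.1 ± 5.9 in DCT (n = 3), was highest in OMCD at 243 ± 56.4 (n = 4), and fell by 1.96 from OMCD to IMCD (SE 0.17, adjusted p = 7.27e-13). It was lowest in PTS1, at 0.625 ± 0.18 TPM (n = 3). Oxsr1 lay between 3.09 TPM in PTS3 and 21.1 in GL. Sgk1 ranged from 7.76 ± 3.8 TPM in MTAL (n = 3) to 1481 ± 323 in IMCD (n = 3). It was also high in ATL, at 1108 ± 452.5 TPM (n = 4), and in GL, at 1043 ± 109 (n = 3).

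**Figure D5:**
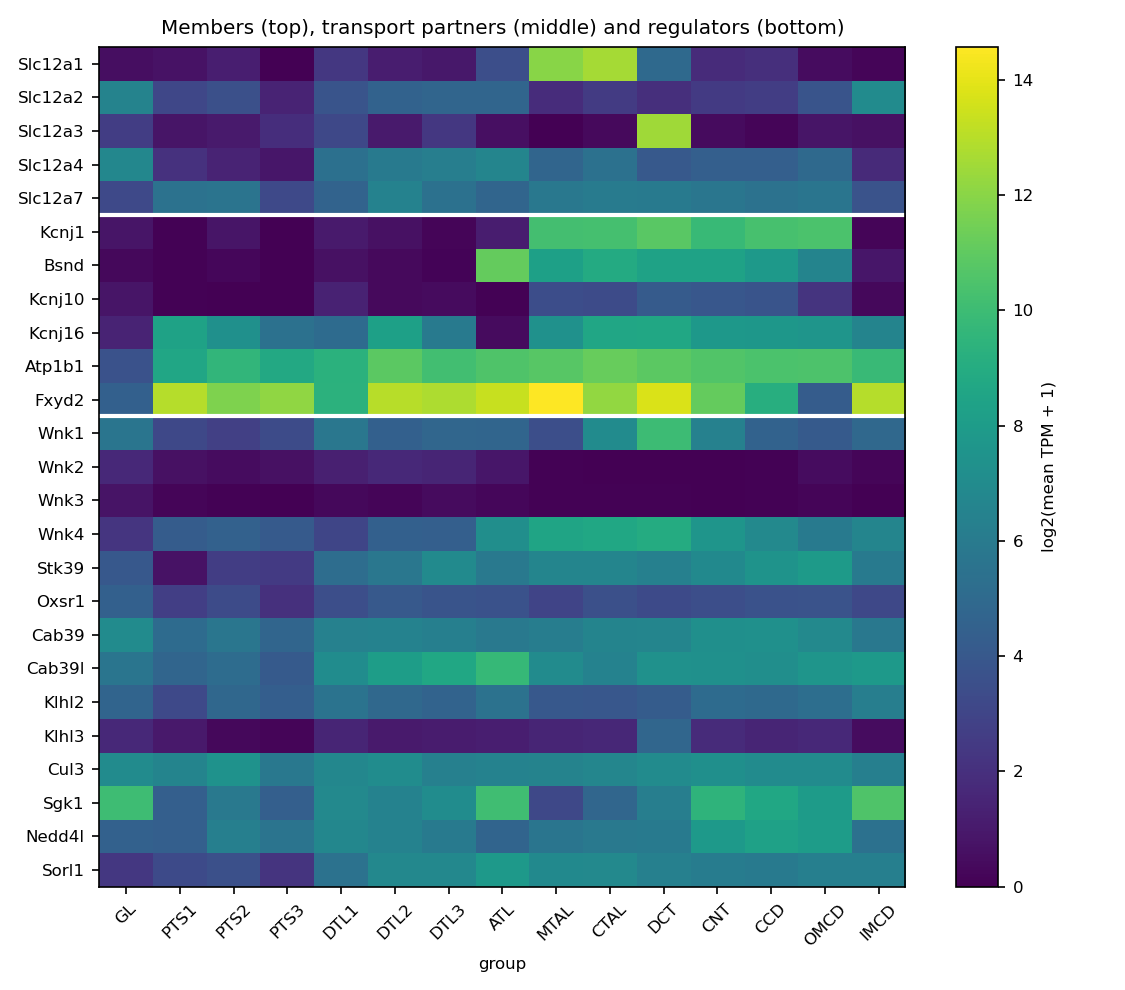
Group means as log2(mean TPM + 1) (colour) of the 5 members, 6 transport partners and 14 regulators (rows, separated by white lines) in each group (columns). Kcnj1 is high from MTAL to OMCD and low in ATL and IMCD, and Wnk1 and Klhl3 are highest in DCT, the group of Slc12a3.

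The genes most like each member were taken by Pearson's r over the 15 group means, among 11863 genes with a group mean of at least 10 TPM. For Slc12a1 these were Tmem207 (r = 0.976), Nacad (0.958), Pla1a (0.949), Klk1b21 (0.94) and Lmo1 (0.94). For Slc12a3 they were Pvalb (r = 0.962), a calcium-binding protein and known DCT marker, Gulo (0.95), Lhfpl1 (0.939), Sall3 (0.885) and Lrrc52 (0.867), each highest in DCT. With 1 or 2 groups far above the rest, these values restate which group is high. Slc12a2 was nearest to Btbd19 (r = 0.929), Zbtb38 (0.909), Npy1r (0.909), Baiap3 (0.905) and Cxcl1 (0.903), and Slc12a4 to Arhgap29 (r = 0.968), Cyp46a1 (0.961), Zfp229 (0.959), Fbxo30 (0.956) and Exd2 (0.951). For Slc12a7 they were Ppargc1a (r = 0.9), a coactivator of mitochondrial genes, Eno1 (0.887), D2hgdh (0.878), Lrpprc (0.855) and Cox7a1 (0.85). All groups come from the same table and these r are descriptions without a test.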

How the data were processed

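Microdissected tubules and glomeruli were sequenced from very small inputs with the SMARTer V4 and Nextera XT kits, per the labels' protocols. The authors deposited TPM per gene and sample. The submitters' processing notes name STAR 2.5.4a, RSEM 1.3.0, Cell Ranger 3.0.2 and Seurat, without their roles, and the genome build is not given in the sources used here. All 93 sample columns were used and 0 were left aside. The name of 1 PTS2 column gives mouse 2 but a piece letter that no sample title of that mouse and segment has. That column was used as a mouse without a number. The 3 single-cell samples were not analysed.

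Pieces were averaged per mouse, as log2(TPM + 1) for tests and as TPM for the levels printed. Genes with at least 1 TPM in at least 3 mice were kept, and limma 3.58.1 (R 4.3.3, lmFit and eBayes with a trend) was fitted to the 15 groups together, with a common residual variance per gene. The F-test, the two-sided contrasts of all pairs of groups and the highest-group test (largest one-sided p of 14 contrasts) were each adjusted by Benjamini-Hochberg over 33793 genes. Summaries and figures used Python 3.11.15 with pandas 2.3.3 and matplotlib 3.10.9. The fit was tested on simulated data.

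The members, lists and tests were chosen with earlier results of these data known. Named genes were the members, the other Slc12 genes, the partner and regulator lists, and per member the 5 genes of highest r, passing over predicted, Rik, mitochondrial, ribosomal protein, pseudogene and clone names. Some genes of these lists and of the marker lists are not reported here, and counts and sums are over the others. Genes Gm14002 and Gm16156 lie opposite Slc12a1 and Slc12a4 in GENCODE M21 and reached at most 3.23 and 8.79 TPM. Use of strand in counting is not stated, so reads of such pairs cannot be told apart. The labels do not pair mice across groups: deviations from group means of the same number in different groups had a median correlation of 0.000185 over 290 pairs, of which 19 exceeded 0.1, against 0.000366 and 32 of 1016 pairs for different numbers. Alternatives were pseudocounts, filters, median ratio and quantile scaling, treatment of pieces, the mouse number as a block, ATL subsets and leaving out each mouse.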

Additional observations from a re-analysis of the deposited data

Results flagged for a closer look

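Among 25 sets of 4 or 5 mice (the 5 members in PTS2, CTAL, CCD, ATL and OMCD), 4 had a single mouse whose gap to its nearest neighbour took up an unusual part of the whole range of log2(TPM + 1), by Dixon's test at 95%. Chance marks about 1 in 20 sets in this way. In the ATL, mouse 4 was low for Slc12a7, with a gap of 0.942 of the range (limit 0.829): it held 7.27 TPM and the other mice 31.3 to 34.1. The same mouse had the lowest Slc12a4 and Slc12a1 of the ATL (44.9 and 0.69 TPM), and 512 receptor genes at 1 TPM or more. ATL mouse 6 was high for Slc12a3, at 1.51 TPM against 0.17 to 0.23 (gap 0.934 of the range, limit 0.829), with 582 receptor genes. In the CCD mouse 4 was high for Slc12a4, at 26.1 TPM against 18.6 to 19.8 (gap 0.813, limit 0.71). In the CTAL mouse 2 was low for Slc12a7, at 58.8 TPM against 67.4 to 70.8 (gap 0.736, limit 0.71).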

How the results depend on the processing

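The F-test stayed past its threshold for all 5 members under every alternative run, and the margin of Slc12a3 in DCT stayed called. The Slc12a4 margin of GL over the next group changed sign under median ratio rescaling (-0.022), with ATL mice 2 and 3 only (-0.26) and, leaving out 1 mouse at a time, ranged from -0.097 to 0.41. It was not called in any setting. The 29 neighbouring calls became 36 with a pseudocount of 0.1, 22 with 5, 28 with median ratio rescaling, 25 with quantile normalization and 29 with the mouse number as a replicate block, which moved no member across a threshold. Under quantile normalization the differences of PTS3 minus DTL1 for Slc12a3 (1.04) and Slc12a7 (0.20) reversed. Leaving out single mice changed 21 of 4558 results, 12 of them losing a call, 8 gaining one and 1 changing sign. The 4558 also hold the number of steps with an adjusted p under 0.05 in each member's order, whose changes are not among the 21. That number ran from 1 to 2 for Slc12a1, 2 to 3 for Slc12a2, 1 to 3 for Slc12a3, 2 to 5 for Slc12a4 and 1 to 5 for Slc12a7. The like genes depended on the measure: Spearman's rho shared none of the 5 for Slc12a1, Slc12a2 and Slc12a3, 2 for Slc12a4 and 1 for Slc12a7, and Pearson's r over mice shared 5, 3, 5, 2 and 2. Values near 0.01 TPM are at the rounding limit of the table, and groups of 3 mice limit the precision.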
